A study of Mus musculus with 24 samples.

Results

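Collagens, laminins, integrins and matrix proteases build, hold and cut the extracellular matrix, and 64 of the 12010 genes measured in B16-F10 mouse melanoma cells belong to these families. They were taken by symbol: every collagen chain, laminin chain, integrin subunit, matrix metalloproteinase (MMP), tissue inhibitor of metalloproteinases (TIMP), ADAMTS protease and thrombospondin in the table, plus fibronectin (Fn1), Sparc and the collagen cross-linker Loxl2. Among them are 8 fibrillar collagen chains, 16 other collagen chains, 6 laminin chains, 8 alpha and 5 beta integrin subunits, 5 MMPs, 3 TIMPs, 8 ADAMTS proteases, 2 thrombospondins and the 3 single genes. Membership follows from the symbol, with no further cutoff on a measured value, and the families were picked with earlier results of these data known. The table itself had been filtered by a rule not given in the sources used here. A gene read in only some lines may have entered it through those lines.

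The mRNA was sequenced in 8 lines, with 3 libraries of each. All 8 derive from B16F10-luc2, a B16-F10 melanoma line that carries a luciferase reporter, and the parental line had none of the 3 genes knocked out. MITF KO lacked functional MITF through frameshift mutations, TFE3 KO and TFEB KO were made with Cas9 and 1 guide for each gene, and the remaining lines combined these losses as TFEB/TFE3 DKO, MITF/TFE3 DKO, MITF/TFEB DKO and a triple KO (TKO) without all 3 factors. The KO lines were clonally isolated, so each group is 1 clone, and a difference between lines cannot be told apart from a difference between clones. According to the paper, the combined lines without MITF were made from the MITF KO cells. A change particular to that founder line would therefore appear in every line without MITF. The labels do not say that the 3 libraries of a line came from separate cultures, and the p-values measure only the spread between these libraries. In bulk RNA, fewer cells that express a gene and less RNA per cell cannot be told apart.

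Cells deposit collagens, laminins and fibronectin as fibrils, sheets and networks. Integrins, each a pair of an alpha and a beta subunit, span the membrane and tie these ligands to the actin cytoskeleton, while MMPs and ADAMTS proteases cut them and TIMPs block the proteases. In melanoma, the matrix made by the tumor cells and the integrins they carry are known to bear on attachment, migration and spread. MITF, TFEB and TFE3 are related basic helix-loop-helix leucine zipper factors that bind the same short DNA motifs, centred on CACGTG or CATGTG.

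Since these factors read such motifs, the promoters of the matrix genes were searched for them. RefSeq promoter windows (GRCm38.p6, 300 bases, from 250 before to 50 after the gene start) matched 43 of the 64 genes and 9647 genes of the whole table. CACGTG lay in 0 of the 43 windows and in 12% of all windows. The longer TCACGTGA and TCATGTGA (both strands), which hold CACGTG and CATGTG, were in 0 of the 43 and in 2.30% and 0.995% of all. CATGTG on either strand was in 2 of the 43 windows (4.65%), those of Lamb1 and Col11a2, against 10.0% of all windows. These 2 sites are shown because no other member's window held the motif, which is in capitals with 12 bases on either side. Their windows were placed by exact match, which puts the sites at chr12:31315219-31315248 and chr17:34257991-34258020 (GRCm39, both on the plus strand), with the motif starting 61 and 109 bases before the RefSeq gene start. The GENCODE annotation has exons of the Lamb1 5′ UTR and of the noncoding Gm61290 at the first site and no transcript at the second:
Lamb1: gcccccgctctcCATGTGcgcatgagcaga
Col11a2: gctctgtaattaCATGTGgcaggacgaggg
The AP-1 motif TGAGTCA on either strand was in 2 windows as well, those of Col6a1 and Itga9, and in 4.32% of all. A match is a description of the letters in this window and not of binding.

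Levels are CPM, reads of a gene relative to the library's total, scaled by the TMM method of edgeR, from 3′ end sequencing, in which a transcript gives reads near its end whatever its length. The libraries held 18300902 to 26667877 reads on genes. One read was worth 0.0364 to 0.0545 CPM. Mitf mRNA stood at 776 CPM in the parental cells, 1397 in MITF KO, 1192 in MITF/TFE3 DKO, 580.4 in MITF/TFEB DKO and 335 in TKO, and a frameshift is not checked by the 3′ end level. Tfeb was 8.80 CPM in the parental cells and 2.88 to 5.12 in the lines without TFEB, and Tfe3 was 37.1 CPM and 8.63 to 19.8 in those without TFE3. All 7 melanocyte markers examined were measured, with a summed level of 26134 to 26953 CPM in the parental libraries, 38412 to 40321 in MITF KO, 17175 to 19640.1 in MITF/TFEB DKO and 15826 to 16858 in TKO. The sum includes Mitf and is mostly Dct, with means of 17751 CPM in the parental cells and 29022 in MITF KO. In MITF KO the means of Mitf, Sox10 and Tyrp1 were also higher, and those of Pmel, Tyr and Mlana lower. In MITF/TFEB DKO and TKO the mean of Sox10 was higher than in the parental cells and those of the other markers lower. Of the 6 fibroblast markers only Pdgfrb and the member Col1a1 were in the table, and their sum was 2.23 to 2.93 CPM in the parental libraries, 4.62 to 6.07 in MITF KO, 12.4 to 16.4 in MITF/TFEB DKO and 10.6 to 12.7 in TKO. The endothelial marker Pecam1 read 7.73 to 8.59 CPM in the parental libraries, 1.82 to 2.79 in TFE3 KO, 10.9 to 17.6 in TFEB KO and 25.5 to 31.6 in TFEB/TFE3 DKO. Where MITF was missing it read 0.0545 to 0.482 (MITF KO), 1.10 to 2.03 (MITF/TFE3 DKO), 0.0796 to 0.627 (MITF/TFEB DKO) and 0 to 0.215 CPM (TKO), all below the parental libraries. The epithelial marker Cdh1 and the immune marker Cd68 spanned 0.285 to 3.0 and 0.225 to 1.74 CPM over all libraries, and the remaining markers were not analysed here. The part of these shifts in the results was not tested.

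The strongest member was Sparc, a secreted collagen-binding glycoprotein, with a mean of 3269 CPM over the 24 libraries. Timp2, which both inhibits MMPs and helps Mmp14 to activate Mmp2, followed at 872.5 CPM. The membrane protease Mmp14 stood at 334 CPM, the common integrin chain Itgb1 at 317, Itga6 at 154 and Adamts1 at 136, and these 6 genes were the members at or above 100 CPM. Another 20 members lay from 10 up to 100 CPM, 28 from 1 up to 10 and 10 below 1. At 20 members a gene on the other strand overlaps the last 500 bases, among them Itga9, Itgb4, Lamb1, Mmp19, Thbs3, Mmp2, Lama4, Timp1, Col11a1, Col18a1 and Col27a1. Whether the authors counted by strand is not given in the sources used here, and without strand the reads of such pairs cannot be told apart.

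Against the parental cells, a gene was called higher or lower where it changed at least 2-fold with p under 0.05 before adjustment, in a limma fit over all 12010 genes and 24 libraries on log2(CPM + 1). All fold changes given are differences of this logarithm, and for weakly expressed genes they come out smaller than the ratio of the levels. All 7 comparisons share the 3 parental libraries. Every member call also had an adjusted p under 0.05. In at least 1 line 39 of the 64 members were called, and the matching share of all genes was not counted. Where both MITF and TFEB were missing, 26 members rose in MITF/TFEB DKO and 25 in TKO, against 8.78% and 8.28% of all genes. In the KO lines that kept MITF at most 1 member rose, where only 0.192% to 0.575% of all genes did.

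**Figure D1:**
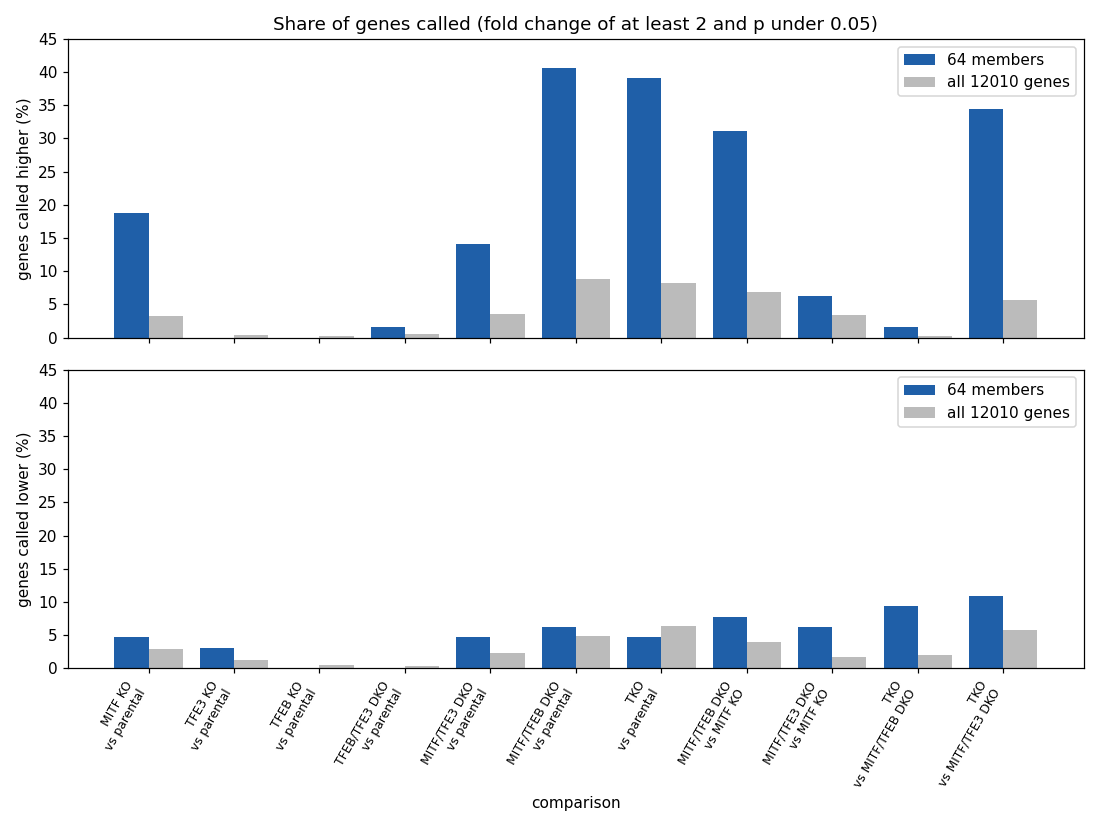
Share of the 64 matrix and adhesion genes (blue) and of all 12010 genes (grey) called higher (upper panel) or lower (lower panel), in percent, in 11 comparisons of lines with 3 libraries each. The blue bars for higher calls reach 40.6% in MITF/TFEB DKO and 39.1% in TKO, beside grey bars of 8.78% and 8.28%.

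**Figure D2:**
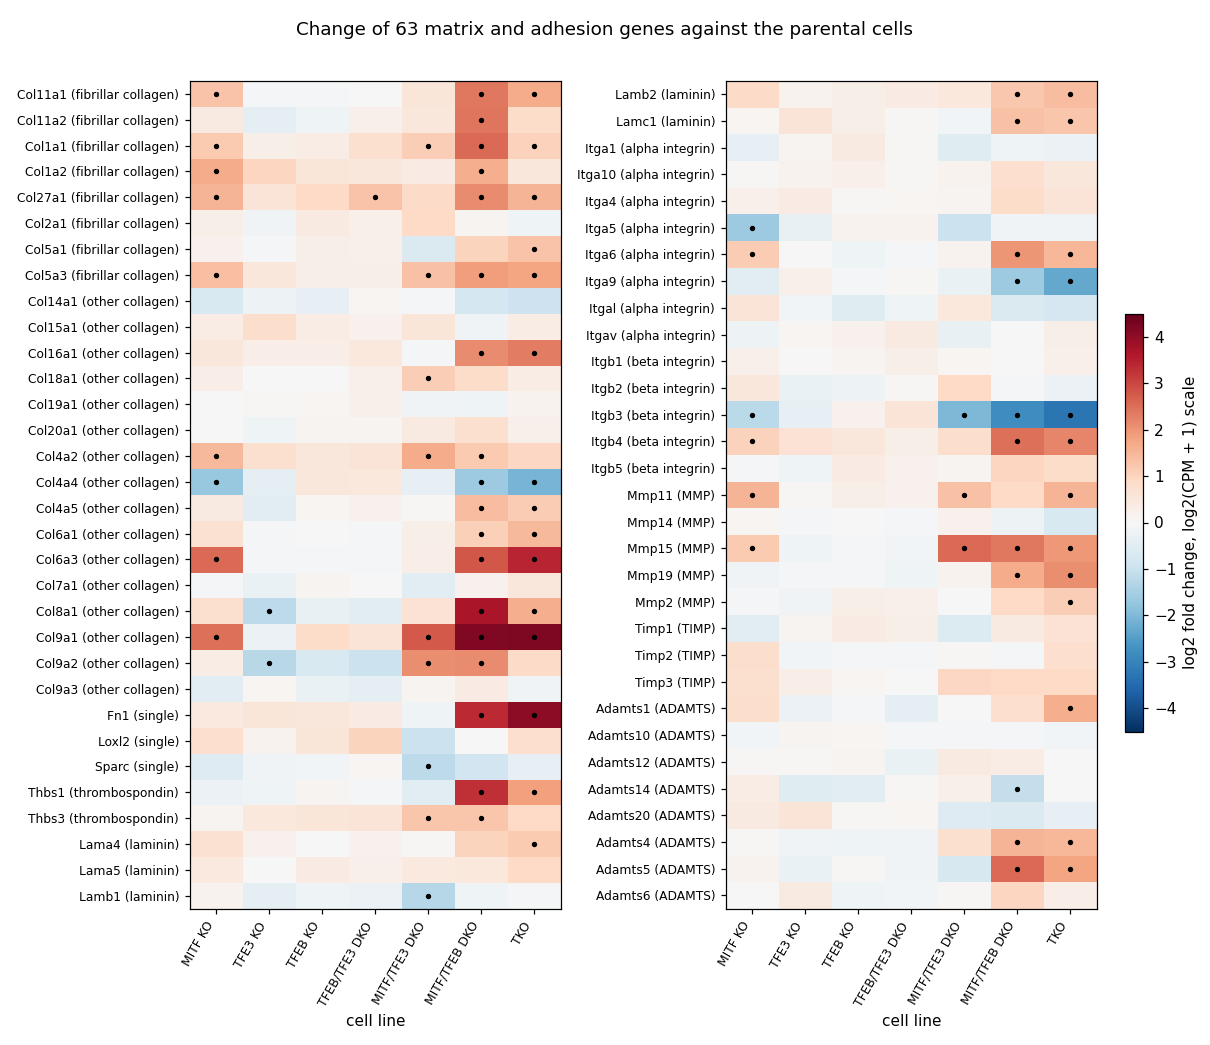
Fold change of 63 of the 64 genes (rows, with their family) in each KO line against the parental cells (columns), as the difference of mean log2(CPM + 1) over 3 libraries each, with red for higher and blue for lower. Dots mark called genes. The MITF/TFEB DKO and TKO columns each show 25 higher calls, and the TFEB KO column holds 0.

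In MITF KO collagen chains rose. Of the 64 members 12 (18.8%) rose and 3 (4.69%) fell, against 3.29% and 2.99% of all genes called, and the median change of the members was 0.28 on the log2 scale against 0.00059 over all genes. Fibrillar collagens made up 5 of the 12: Col1a2, Col1a1, Col5a3, Col11a1 and Col27a1 rose, out of 8 chains. Col1a2, a chain of the type I collagen of skin and bone, read 9.49, 9.19 and 12.3 CPM in parental libraries and 35.6, 30.6 and 39.6 in MITF KO. All 3 KO libraries lay above all 3 parental ones, a log2 fold change of 1.68 ± 0.13 (SE, n = 3 per line, adjusted p = 5.9e-10). Its partner chain Col1a1 stayed far lower, at 0.399 CPM in the parental cells and 2.16 in MITF KO.

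Among the other collagens Col9a1, Col6a3 and Col4a2 rose in MITF KO. Col9a1, a chain of the fibril-associated type IX collagen known from cartilage (chr1:24216691-24291765, plus strand, GRCm39), read 0.949, 1.0 and 1.35 CPM in parental libraries and 11.4, 10.9 and 9.48 in MITF KO. These groups did not overlap (log2 fold change 2.47 ± 0.19, adjusted p = 6.1e-10). Col6a3, a chain of the beaded-filament type VI collagen, had 5, 1 and 0 reads in the parental libraries and 104, 99 and 139 in MITF KO, a change from near absence to 5.48 CPM. Col4a2, of the basement membrane, was 2.63 CPM in the parental cells and 8.58 in MITF KO, while Col4a4 of the same collagen type fell from 8.72 to 2.01 CPM (log2 fold change -1.70, adjusted p = 9.5e-08).

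Integrins moved both ways in MITF KO. Itga6, an alpha chain of laminin receptors, read 94.3, 88.6 and 81.6 CPM in parental libraries and 189, 203 and 202 in MITF KO, without overlap (log2 fold change 1.16 ± 0.10, adjusted p = 2.3e-09). Itgb4, which pairs with it, rose as well, from 0.580 to 2.26 CPM. The fibronectin receptor chain Itga5 fell from 4.70, 6.87 and 6.61 CPM to 1.13, 1.20 and 1.47 (log2 fold change -1.63 ± 0.16, adjusted p = 3.0e-08), and the beta chain Itgb3 fell too. Of the proteases Mmp11 and the membrane-type Mmp15 rose, to 13 and 2.66 CPM from 3.90 and 0.621. Among the 19 ADAMTS proteases, laminins, TIMPs and thrombospondins limma called 0 in this line, and edgeR at the same fold with an adjusted p under 0.05 also called 0, while 7 had an unadjusted p under 0.05, as did 46.6% of all genes (log2 fold changes from -0.49 to 0.85). Fn1 stood at 22.8 ± 3.36 CPM in MITF KO and 16.8 ± 3.78 in the parental cells (SD, n = 3), a difference that missed the fold threshold (log2 fold change 0.43, adjusted p = 0.089).

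With MITF present, few matrix genes were called, as were few of all genes. In TFE3 KO 0 members rose and 2 fell, against 0.366% and 1.34% of all genes, at a median of -0.014 against -0.0015 over all genes. At an unadjusted p under 0.05 without the fold threshold, 14 were higher and 7 lower, against 11.9% and 14.7% of all genes. With edgeR on the recovered reads, at the same fold and p, 2 were higher and 3 lower, against 1.42% and 3.17% of all genes. Col8a1, a short-chain network collagen, read 1.73, 1.96 and 0.539 CPM in the parental libraries and fell to 0, 0 and 2 reads in TFE3 KO, so no fold is given. Without the second parental library it was not called, and the 100 genes around it were shifted by -0.33 in this line. Col9a2, the partner of Col9a1, read 3.54, 3.37 and 3.24 CPM in parental libraries and 0.449, 1.17 and 1.03 in TFE3 KO, without overlap (log2 fold change -1.24 ± 0.22, adjusted p = 5.6e-04).

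In TFEB KO limma called 0 members higher and 0 lower, against 0.192% and 0.591% of all genes. At an unadjusted p under 0.05 alone, 12 were higher and 4 lower, against 8.37% and 8% of all genes, and edgeR called 3 higher and 1 lower, against 0.974% and 1.6%. Loss of both TFEB and TFE3 gave 1 member higher and 0 lower, against 0.575% and 0.383% of all genes. At an unadjusted p under 0.05 alone, 13 were higher and 2 lower in this line, against 11% and 11.5% of all genes, and edgeR called 5 and 2, against 1.66% and 1.33%. The called gene was the fibrillar collagen Col27a1, at 3.11, 2.32 and 2.43 CPM in parental libraries and 6.39, 10.4 and 7.19 in TFEB/TFE3 DKO (log2 fold change 1.29 ± 0.16, adjusted p = 1.1e-05). All 3 DKO libraries lay above the parental ones. Fn1 ranged from 16.6 to 32.2 CPM over the 9 libraries of these lines.

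In MITF/TFE3 DKO 9 members rose and 3 fell, against 3.5% and 2.37% of all genes, at a median of 0.14 against 0.016 over all genes. Risen members were the collagens Col9a1, Col9a2, Col4a2, Col5a3, Col1a1 and Col18a1, the proteases Mmp15 and Mmp11, and Thbs3. Mmp15 (chr8:96078895-96101708, plus strand) read 0.777, 0.637 and 0.449 CPM in parental libraries and 7.56, 9.70 and 8.14 in MITF/TFE3 DKO, without overlap (log2 fold change 2.54 ± 0.17, adjusted p = 4.7e-11), and the genes around it were shifted by 0.31 in the same direction. Col9a2 reached 17.9, 20.1 and 15.7 CPM, above its parental values of 3.54, 3.37 and 3.24.

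The 3 genes that fell in MITF/TFE3 DKO belong to 3 families. Sparc went from 4513, 4497 and 3478 CPM to 1658, 2145 and 1746, all lower than the parental libraries (log2 fold change -1.17 ± 0.14, adjusted p = 4.4e-07). Its mean was also below the parental 4162 CPM in MITF KO (2761), MITF/TFEB DKO (2258) and TKO (3165), where it was not called. Its libraries without MITF spanned 1658 to 3299 CPM and those with MITF 3417 to 5119, without overlap. The lines without MITF share the MITF KO founder, so their agreement is not independent. The laminin chain Lamb1, whose CATGTG site is printed above, went from 4.75, 4.82 and 4.31 CPM to 0.706, 1.79 and 1.55, again without overlap (log2 fold change -1.29 ± 0.21, adjusted p = 3.8e-05). Itgb3 dropped to 6.68 CPM.

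The largest numbers of calls were in the lines without both MITF and TFEB. In MITF/TFEB DKO 26 members (40.6%) rose and 4 (6.25%) fell, against 8.78% and 4.94% of all genes, at a median of 0.89 against 0.013. In TKO 25 (39.1%) rose and 3 (4.69%) fell, against 8.28% and 6.41%, at a median of 0.82 against 0.014, so the share that fell was near the background in both lines. The same shares of all genes stand beside the counts of each family given below for both lines. Some higher calls, such as those of Mmp19 and Col6a3, are of genes with few parental reads. Such genes may have passed the table's filter through the KO lines, and the counts include them. Of the 26 higher in MITF/TFEB DKO, 7 lie where the 100 genes around them were also shifted upward by at least 0.3 (among them Adamts4, Col4a2, Col6a3, Col9a1, Lamc1 and Mmp19), and in TKO 4 of 25 do (Adamts4, Col6a3, Col9a1 and Lamc1). The part of such stretches in the result was not tested.

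Fibronectin, the adhesive glycoprotein that integrins assemble into fibrils, rose in both lines (chr1:71624673-71692419, minus strand). Fn1 read 17.1, 12.9 and 20.4 CPM in the parental libraries, 190.0, 182 and 170.2 in MITF/TFEB DKO and 273, 292 and 295 in TKO. The 18 libraries of the other 6 lines spanned 9.92 to 32.2 CPM, so these 6 libraries lay above every other one. Its log2 fold change was 3.37 ± 0.20 in MITF/TFEB DKO (adjusted p = 1.7e-12) and 4.04 ± 0.20 in TKO (adjusted p = 4.6e-14). The neighbouring genes were shifted by 0.29 and 0.28.

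Thrombospondins, secreted proteins that bind matrix and cell surface receptors, also rose. Thbs1 (chr2:117941974-117957616, plus strand) read 1.29, 0.682 and 0.225 CPM in the parental libraries, 17.4, 13.4 and 15.7 in MITF/TFEB DKO and 4.55, 7.51 and 3.78 in TKO, with all 6 libraries above all 18 others, which spanned 0 to 1.29 CPM. The log2 fold changes were 3.29 ± 0.25 and 1.86 ± 0.25 (adjusted p = 1.3e-10 and 1.1e-06). Thbs3 rose in MITF/TFEB DKO, from 5.76 to 14.9 CPM, and at 11.7 CPM it was not called in TKO (log2 fold change 0.91).

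**Figure D3:**
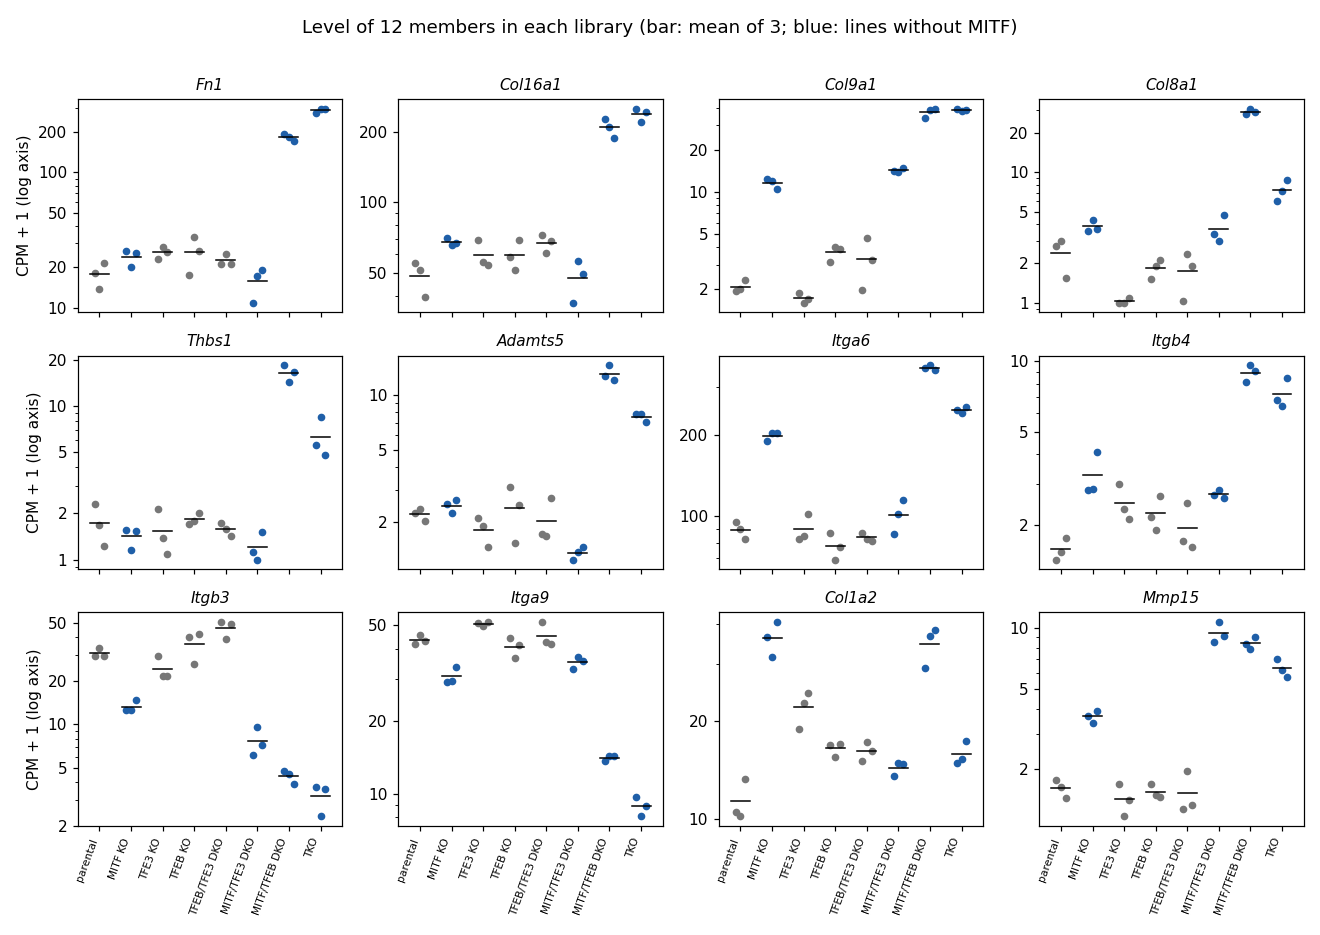
Level of 12 genes in each of the 24 libraries as CPM + 1 on a log axis, by line, with a bar at the mean of 3 libraries. Blue points are the lines without MITF and grey points the others. Fn1 and Thbs1 stand highest in MITF/TFEB DKO and TKO, at means of 181 and 287 CPM for Fn1, and Itgb3 and Itga9 stand lowest there.

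Of the 8 fibrillar collagen chains 6 rose in MITF/TFEB DKO and 5 in TKO. Col1a1, Col5a3, Col11a1 and Col27a1 rose in both. Col1a1 read 0.518, 0.546 and 0.135 CPM in the parental libraries, 6.27, 7.05 and 7.84 in MITF/TFEB DKO and 2.15, 2.62 and 0.989 in TKO, the first KO line clearly above the second. Col5a3 stood at 11.5, 43.9 and 40.6 CPM in the same order, and Col27a1 at 2.62, 14.6 and 9.43. Col1a2 and Col11a2, a chain of the thin fibrils of cartilage with the other printed site, rose in MITF/TFEB DKO, to 33.8 and 9.30 CPM from 10.3 and 0.973. In TKO they stood at 14.9 and 2.44 CPM and were not called (log2 fold change 0.49 and 0.81). Col5a1, with 30.6 CPM in the parental cells the highest of the fibrillar chains there, rose in TKO to 74.9 CPM. In MITF/TFEB DKO it read 70.1, 61.6 and 53.1 CPM, above the parental 36.5, 28.5 and 27.0, and was not called. Col2a1, the type II chain, ranged from 0.0729 to 0.980 CPM in these 3 lines.

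Among the 16 other collagens 8 rose and 1 fell in MITF/TFEB DKO, and 6 rose and 1 fell in TKO. Col9a1 was 32.7, 37.7 and 38.5 CPM in MITF/TFEB DKO and 38, 36.9 and 37.2 in TKO, the largest fold change of any member in both lines (log2 4.15 ± 0.19 and 4.20 ± 0.19). Its neighbours were shifted upward by 0.37 and 0.43. Col16a1, a fibril-associated collagen (chr4:129941154-129993076, plus strand), was the most abundant collagen chain of the study, with 53.8, 50.2 and 38.6 CPM in the parental libraries, 227, 209.9 and 187 in MITF/TFEB DKO and 251, 221 and 242 in TKO. All 6 lay above the 36.2 to 71.5 CPM of the 18 other libraries (log2 fold change 2.12 and 2.31, adjusted p = 1.5e-11 and 2.3e-12).

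Col8a1 read 26.9, 29.8 and 27.9 CPM in MITF/TFEB DKO and 5.06, 6.13 and 7.78 in TKO, above its parental values of 1.73, 1.96 and 0.539 in both (log2 fold change 3.66 ± 0.25 and 1.65 ± 0.25). Both type VI chains appeared: Col6a3 went from 5, 1 and 0 reads in the parental libraries to 156, 164 and 172 in MITF/TFEB DKO and 283, 251 and 225 in TKO, while Col6a1 went from 1, 1 and 0 parental reads to 30, 27 and 31 in MITF/TFEB DKO and 49, 31 and 53 in TKO, so that no fold is given for Col6a1. In the basement membrane type, Col4a5 rose in both lines, to 11.2 and 9.11 CPM from 3.64, and Col4a2 rose in MITF/TFEB DKO. Col4a4 fell in both, from 8.93, 8.14 and 9.08 CPM in the parental libraries to 2.0, 2.43 and 1.95 in MITF/TFEB DKO and 1.53, 0.951 and 1.33 in TKO (log2 fold change -1.64 and -2.10). Col7a1, Col14a1, Col15a1, Col19a1, Col20a1 and Col9a3 were not called in any comparison with the parental cells, and none of these 6 had a mean over 5.26 CPM in any line. Of them Col14a1 had 26, 19 and 19 reads in the parental libraries and 2, 3 and 8 in MITF KO. It had 5, 0 and 5 reads in MITF/TFEB DKO and 0, 0 and 2 in TKO, all below the parental ones. At such levels the fold on log2(CPM + 1) stays small.

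Laminins are three-chain proteins of basement membranes, and 3 of their 6 measured chains rose in each of these lines. Lamb2 read 45.9, 42.9 and 38.3 CPM in the parental libraries, 98.4, 105 and 95.1 in MITF/TFEB DKO and 116, 109.7 and 109.7 in TKO, with no overlap (log2 fold change 1.21 ± 0.16 and 1.38 ± 0.16). Lamc1 followed the same order, at 26.3, 66.6 and 63.3 CPM, within a stretch whose genes were shifted by 0.60 and 0.68. The alpha chain Lama4 rose to 84 CPM in TKO and stood at 73.3 in MITF/TFEB DKO, just short of the fold threshold (log2 fold change 0.995). Lamb1 was not called in either line.

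The integrins did not move as a block. In each of these 2 lines 1 of 8 alpha chains rose and 1 fell, and 1 of 5 beta chains rose and 1 fell. Of all genes 8.78% rose and 4.94% fell in MITF/TFEB DKO, and 8.28% and 6.41% in TKO. The risen pair was Itga6 and Itgb4, which together form the laminin receptor of hemidesmosomes. Itga6 (chr2:71575960-71689757, plus strand) read 353, 361 and 346 CPM in MITF/TFEB DKO and 247, 241 and 253 in TKO against 94.3, 88.6 and 81.6 in the parental libraries (log2 fold change 1.99 ± 0.10 and 1.48 ± 0.10, adjusted p = 8.2e-14 and 1.2e-11). Itgb4 (chr11:115865333-115899239, plus strand) read 7.10, 8.56 and 8.0 CPM in MITF/TFEB DKO and 5.83, 5.42 and 7.44 in TKO against 0.431, 0.546 and 0.764 in parental cells. Neither gene's values overlapped with the parental ones.

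The fallen chains were Itgb3 and Itga9. Itgb3 (chr11:104498826-104561302, plus strand), which pairs with the alpha v chain to bind vitronectin and fibronectin, read 28.6, 32.6 and 28.5 CPM in the parental libraries, 3.76, 3.57 and 2.91 in MITF/TFEB DKO and 2.73, 1.33 and 2.58 in TKO. It was called lower in all 4 lines without MITF, with log2 fold changes of -1.22 in MITF KO, -2.03 in MITF/TFE3 DKO, -2.81 in MITF/TFEB DKO and -3.29 in TKO. Its 12 libraries without MITF spanned 1.33 to 13.7 CPM and its 12 libraries with MITF 20.4 to 49.7, without overlap. These 4 lines share the MITF KO founder, so they are not independent cases of MITF loss. Itga9 (chr9:118435722-118730072, plus strand), which pairs with Itgb1, read 40.8, 44.7 and 42.1 CPM in the parental libraries, 12.7, 13.3 and 13.4 in MITF/TFEB DKO and 8.71, 7.08 and 7.91 in TKO (log2 fold change -1.62 ± 0.10 and -2.29 ± 0.10, adjusted p = 4.3e-12 and 5.6e-15). The other 6 lines lay at 28.1 to 50.5 CPM. The integrin chains Itgb1, Itgav and Itga4 gave 0 calls by limma or edgeR in the 7 lines, with log2 fold changes from -0.33 to 0.82. An unadjusted limma p under 0.05 was found in 8 of 21 comparisons, against 40.3% over all genes in the 7 comparisons. Itgb1 spanned 264 to 354 CPM over all 24 libraries.

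Among the proteases, 2 of 5 MMPs rose in MITF/TFEB DKO and 4 in TKO, and 2 and 3 of 8 ADAMTS proteases did, while 1 ADAMTS protease fell in MITF/TFEB DKO. Of the MMPs Mmp15 and Mmp19 rose in MITF/TFEB DKO, and Mmp2, Mmp11, Mmp15 and Mmp19 in TKO. Mmp19 had 9, 1 and 0 reads in the parental libraries, 66, 77 and 55 in MITF/TFEB DKO and 80, 91 and 101 in TKO. The gelatinase Mmp2 stood at 11.3 ± 1.47, 21.8 ± 2.64 and 25.3 ± 0.995 CPM in the same order (SD, n = 3). Mmp14 was not called, at 355, 299 and 218 CPM.

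Of the 8 ADAMTS proteases the aggrecan-cleaving Adamts4 and Adamts5 rose in both lines and Adamts1 in TKO. Adamts5 (chr16:85653061-85698716, minus strand) read 1.25, 1.36 and 1.03 CPM in the parental libraries, 11.6, 13.5 and 11 in MITF/TFEB DKO and 6.85, 6.89 and 6.06 in TKO (log2 fold change 2.56 ± 0.21 and 1.78 ± 0.21). Adamts1 read 107, 90.7 and 95.8 CPM in parental libraries and 307, 286 and 326 in TKO (log2 fold change 1.64 ± 0.12, adjusted p = 3.8e-11), all above the parental values. Adamts14, which trims the ends of procollagens, fell in MITF/TFEB DKO from 10.8, 10.1 and 8.94 CPM to 4.08, 4.28 and 4.26 (log2 fold change -1.07 ± 0.13, adjusted p = 2.0e-07) and stood at 10.6, 9.46 and 9.68 in TKO. For Timp1, Timp2 and Timp3 limma and edgeR gave 0 calls against the parental cells in the 7 lines, with 12 of 21 comparisons at an unadjusted p under 0.05 (40.3% over all genes) and log2 fold changes from -0.61 to 0.94, and with Timp3 at 52.2 CPM in the parental cells and 96.4 and 97.9 in these lines.

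**Figure D4:**
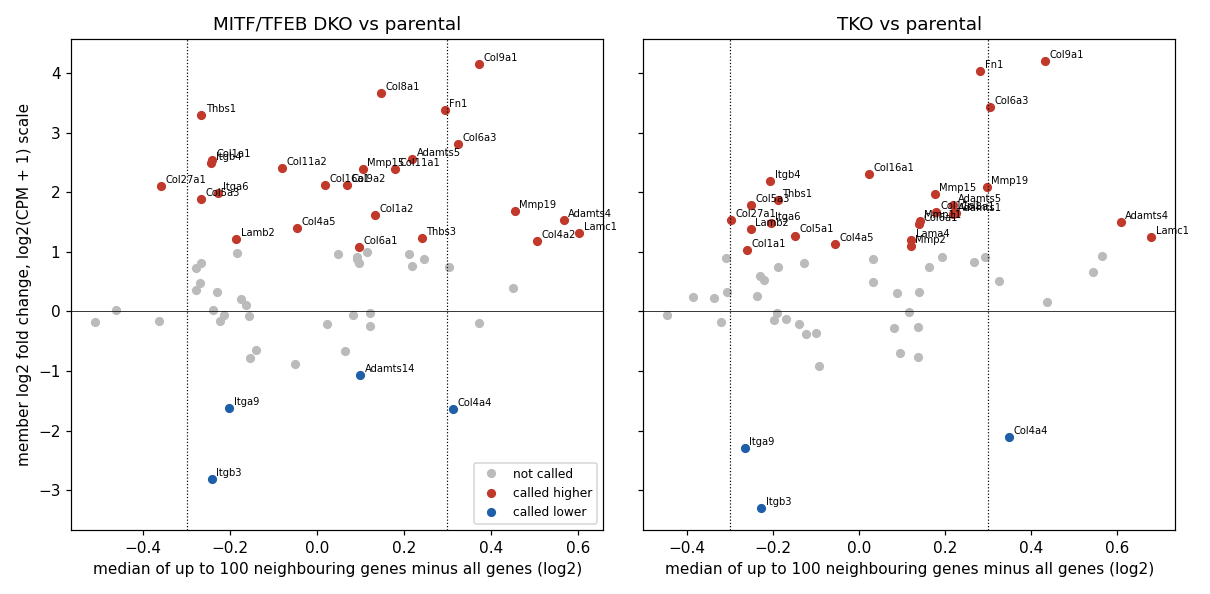
Fold change of 63 of the 64 genes (vertical axis, log2) against the median change of up to 100 genes around it minus that of all genes (horizontal axis, log2), in MITF/TFEB DKO (left) and TKO (right), with dotted lines at a shift of 0.3. Of the 25 higher calls shown on the left 6 lie right of the dotted line, as do 4 of the 25 on the right.

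The lines without MITF were also compared with each other, to ask what the loss of TFEB or TFE3 adds to that of MITF. The comparisons of MITF/TFEB DKO and MITF/TFE3 DKO with MITF KO share the 3 MITF KO libraries. When TFEB was lost in addition to MITF, 20 members rose and 5 fell relative to MITF KO, against 6.91% and 3.99% of all genes, at a median of 0.45 against 0.018. Thbs1, Fn1, Col8a1 and Adamts5 led the rise, with log2 fold changes of 3.54 ± 0.25, 2.94 ± 0.20, 2.93 ± 0.25 and 2.40 ± 0.21. Itga5, low in MITF KO at 1.13, 1.20 and 1.47 CPM, read 4.27, 6.17 and 5.49 in MITF/TFEB DKO, which overlapped with the parental 4.70, 6.87 and 6.61. The genes that fell were Itgb3, Adamts14, Itgal, Itga9 and Adamts20 (log2 fold change -1.05 to -1.59).

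When TFE3 was lost in addition to MITF, 4 members rose and 4 fell relative to MITF KO, against 3.39% and 1.67% of all genes, at a median of -0.096 against -0.0073. Col9a2, Mmp15, Col4a4 and Thbs3 rose. Col6a3, Loxl2, Lamb1 and Col1a2 fell: Col6a3 read 4.90, 3.98 and 7.57 CPM in MITF KO and 0.457, 0 and 0.640 in MITF/TFE3 DKO, and Col1a2 read 35.6, 30.6 and 39.6 and 12.5, 13.9 and 13.8. Both groups were apart in each gene (log2 fold change -2.24 ± 0.18 and -1.33 ± 0.13, adjusted p = 1.9e-09 and 6.3e-08).

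Most calls between TKO and MITF/TFEB DKO were lower in TKO, among the members as over all genes (38 higher and 238 lower). Here 1 member was higher and 6 were lower in TKO, against 0.316% and 1.98% of all genes, at a median of -0.11 against 0.0084. The 6 were the collagens Col8a1, Col11a2, Col1a1, Col9a2 and Col1a2 and Thbs1, with log2 fold changes from -2.01 for Col8a1 to -1.12 for Col1a2, and in none of them did the libraries of the 2 lines overlap. Adamts14 was higher (log2 fold change 1.07 ± 0.13). Against MITF/TFE3 DKO, 22 members were higher and 7 lower in TKO, compared with 5.69% and 5.75% of all genes, at a median of 0.47 against 0.013. Fn1 read 9.92, 16.2 and 17.9 CPM in MITF/TFE3 DKO, and its change to TKO was the largest (log2 fold change 4.23 ± 0.20, adjusted p = 2.8e-14). Timp1, the sole inhibitor called in any of the 11 comparisons, was higher in TKO at 37.6, 36.5 and 37.5 CPM than in MITF/TFE3 DKO at 15.5, 16.3 and 12.7 (log2 fold change 1.28 ± 0.12, adjusted p = 9.8e-09).

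Whether the effect of losing TFEB or TFE3 depended on MITF was tested as an interaction, the change in cells without MITF minus the change in cells with it, passed at a difference of at least 1 (log2) and an adjusted p under 0.05. The 35 named genes were chosen on contrasts that enter this test, so their count is a description. For TFEB, 15 of the 35 passed, and 12.1% of all genes did. The largest differences were those of Thbs1 (3.42 ± 0.35), Col8a1 (3.26 ± 0.36), Col9a2 (2.49 ± 0.32), Fn1 (2.43 ± 0.28, adjusted p = 3.8e-07) and Adamts5 (2.35 ± 0.30). Fn1 changed by 0.51 (log2) on loss of TFEB in cells with MITF and by 2.94 in cells without it. For TFE3, 11 of the 35 passed, and 6.09% of all genes did, with Col9a2 (3.0 ± 0.32) and Col1a2 (-2.29 ± 0.19) at the ends. Col9a2 changed by -1.24 (log2) on loss of TFE3 in cells with MITF and by 1.76 in cells without it. Col1a2 changed by 0.97 with MITF present and by -1.33 without it, so the sign differed in both genes.

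**Figure D5:**
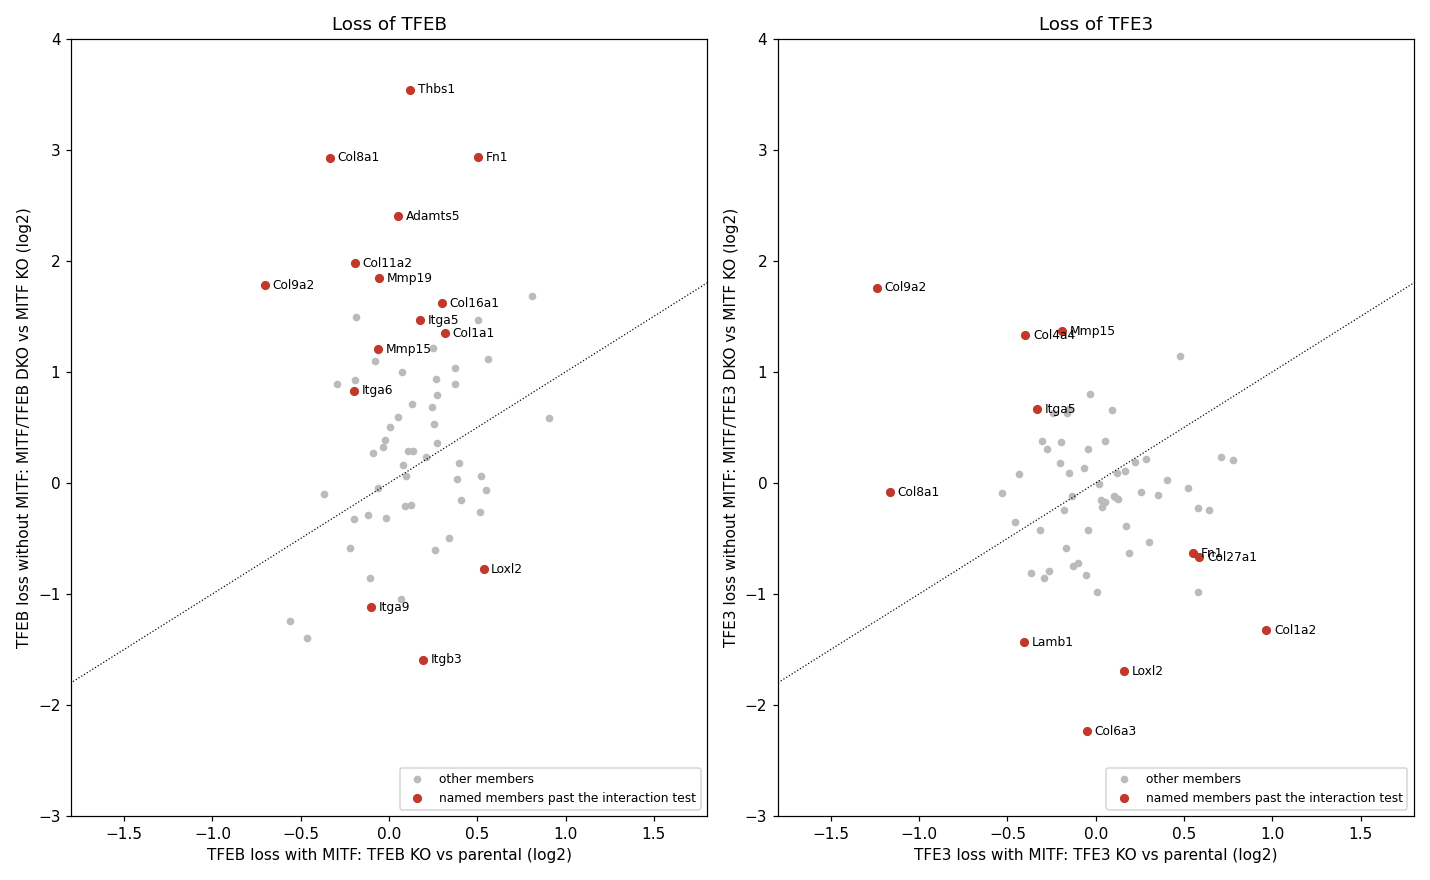
Log2 fold change of 63 of the 64 genes on loss of TFEB (left) or TFE3 (right) in cells with MITF (horizontal axis) and in cells without MITF (vertical axis), with a dotted line of equal change. Red points passed the interaction test among the named genes, 15 on the left and 11 on the right. Thbs1, Col8a1 and Fn1 lie high above the line on the left, and Col9a2 lies upper left on the right.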

How the data were processed

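RNA was sequenced from the 3′ end (QuantSeq Forward) in 24 libraries, 3 of each of 8 lines. Per the labels, the authors used Trim Galore 0.6.5, cutadapt 2.10, FastQC 0.11.9, STAR 2.7.8a, mm39 and edgeR, and deposited a table of TMM-scaled CPM, a signal that is never negative. The counting tool, annotation and filter behind its 12010 genes are not given in the sources used here. Columns of other samples numbered 0. Steps between values gave whole reads (tolerance 0.01 read) for 99.9% of values, and at least 99.8% in each library, with 18300902 to 26667877 reads, and TMM factors implied by the table were 0.925 to 1.07. Replicates differed beyond sampling noise (chi-square per degree of freedom of at least 4.63).

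Lines were compared with limma 3.58.1 (R 4.3.3) on log2(CPM + 1), with a variance trend, 1 fit of 24 libraries and 16 residual degrees of freedom, and Benjamini-Hochberg adjustment over all genes. Calls needed a 2-fold change and p under 0.05 before adjustment, as in the paper. Where no library of a group had over 3 reads of a gene, no fold is given, apart from interaction differences, for which those reads are stated. The fit was tested on simulated data. Alternatives were pseudocounts of 0.25 and 5, genes with a mean of at least 5, edgeR 4.0.16 on the recovered reads, median-of-ratios size factors, adjusted p, a replicate block and leaving out each library. The members, gene lists and markers were chosen with earlier results of these data known. Named genes were the 6 largest rises and falls in each comparison with the parental cells, the 4 largest between lines without MITF, among calls with no overlap between groups, and the 10 highest levels, 35 in all. A few genes are not reported here. Gene positions are GRCm39. Neighbours were up to 50 genes on each side with a mean of at least 5 CPM.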

Additional observations from a re-analysis of the deposited data

Results flagged for a closer look

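The effect of losing TFEB differed between cells with and without MITF in 15 named genes, by the limma interaction test with an adjusted p of at most 0.0051. The differences, log2 change without MITF minus log2 change with it, were positive for Thbs1 (3.42), Col8a1 (3.26), Col9a2 (2.49), Fn1 (2.43), Adamts5 (2.35), Col11a2 (2.17), Mmp19 (1.90), Col16a1 (1.32), Itga5 (1.29), Mmp15 (1.26), Itga6 (1.03) and Col1a1 (1.03). They were negative for Itga9 (-1.02), Loxl2 (-1.31) and Itgb3 (-1.78). Loss of TFE3 gave such a difference in 11 named genes, with an adjusted p of at most 0.036, positive for Col9a2 (3.0), Col4a4 (1.73), Mmp15 (1.56), Col8a1 (1.08) and Itga5 (1.0) and negative for Lamb1 (-1.03), Fn1 (-1.19), Col27a1 (-1.26), Loxl2 (-1.85), Col6a3 (-2.19) and Col1a2 (-2.29). In the TFE3 test, Col8a1 rests on TFE3 KO libraries of 0, 0 and 2 reads, and Col6a3 on TFE3 KO libraries of 0, 0 and 3 reads and parental ones of 5, 1 and 0. Mmp19 had 1, 0 and 0 reads in MITF KO. Both tests share the parental and MITF KO libraries, so a level that is unusual in either line enters both differences. Each line is 1 clone, and the difference between clones cannot be told apart from that between genotypes.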

How the results depend on the processing

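The 69 fold changes of named genes kept their direction in every setting that gave a value, 46 of them under the minimum mean of 5. With a pseudocount of 5, 28 missed the fold threshold, as did that of Col8a1 in TFE3 KO when the second parental library was left out. Counts of calls moved by over 1.5 times in 16 of 24 cases with a pseudocount of 5, in 10 of 24 with one of 0.25, in 10 of 24 with the minimum mean of 5 and in 11 of 22 with edgeR. Pairs of numbers below are members called higher and lower.

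With a pseudocount of 5, higher calls became 6 in MITF KO, 0 in TFEB/TFE3 DKO, 5 in MITF/TFE3 DKO and 14 in TKO, and lower calls 1 in MITF KO, 0 in TFE3 KO and 2 in MITF/TFEB DKO. The same setting gave 10 and 1 for MITF/TFEB DKO against MITF KO, 1 and 1 for MITF/TFE3 DKO against MITF KO, 0 and 2 for TKO against MITF/TFEB DKO, 11 and 1 for TKO against MITF/TFE3 DKO, and 3 genes in the TFE3 interaction. With a pseudocount of 0.25, lower calls became 5 in MITF KO and in TKO, 7 in MITF/TFE3 DKO and 1 in TFEB/TFE3 DKO, higher calls 2 in TFE3 KO and in TFEB KO, 3 in TFEB/TFE3 DKO and 14 in MITF/TFE3 DKO, and MITF/TFE3 DKO against MITF KO gave 7 and 7. Over genes with a mean of at least 5, where fewer members are tested, higher calls were 7 in MITF KO, 15 in MITF/TFEB DKO, 16 in TKO and 10 in MITF/TFEB DKO against MITF KO. There, lower calls were 2 in MITF/TFE3 DKO against MITF KO and 3 in TKO against MITF/TFEB DKO, TKO against MITF/TFE3 DKO gave 13 and 4, and the interactions 8 (TFEB) and 7 (TFE3).

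In edgeR the counts were 5 lower in MITF KO, 2 higher in TFE3 KO, 3 and 1 in TFEB KO, 5 and 2 in TFEB/TFE3 DKO, 16 and 7 in MITF/TFE3 DKO, 6 lower in TKO, and 10 and 8 in MITF/TFE3 DKO against MITF KO. An adjusted p and median-of-ratios size factors changed none of these counts by over 1.5 times.

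With 1 library left out, the counts ran from 11 to 12 and 3 to 3 in MITF KO, 0 to 1 and 1 to 2 in TFE3 KO, 0 to 1 and 0 to 0 in TFEB KO, 1 to 2 and 0 to 1 in TFEB/TFE3 DKO, 8 to 10 and 3 to 4 in MITF/TFE3 DKO, 25 to 30 and 4 to 5 in MITF/TFEB DKO, and 24 to 26 and 3 to 3 in TKO. Between lines they ran from 17 to 22 and 4 to 6 (MITF/TFEB DKO against MITF KO), 4 to 4 and 4 to 6 (MITF/TFE3 DKO against MITF KO), and 19 to 22 and 6 to 7 (TKO against MITF/TFE3 DKO), with 1 and 6 throughout for TKO against MITF/TFEB DKO. The interactions gave 13 to 16 (TFEB) and 9 to 11 (TFE3). The libraries that moved a count by over 1.5 times were parental 1 and 3 and TFE3 KO 1 for higher calls in TFE3 KO (1 each) and parental 2 for lower ones (1), parental 1 and TFEB KO 2 in TFEB KO (1 higher each), and parental 2 and TFEB/TFE3 DKO 3 (2 higher each) and parental 3 and TFEB/TFE3 DKO 2 (1 lower each) in TFEB/TFE3 DKO.

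As for pairing, libraries with the same number correlated in their deviations from the line means by 0.022 on average (-0.66 to 0.77, over 0.1 in 42 of 84 pairs). The labels give only the number, and a mean over such a range cannot show whether these libraries share a batch. A fit with the replicate block called 12 higher and 3 lower in MITF KO, 26 and 4 in MITF/TFEB DKO and 25 and 3 in TKO, and moved no count by over 1.5 times. Depth limits members of few reads, of which 10 have a mean under 1 CPM.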

Other observations

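Other matrix genes moved in MITF/TFEB DKO and TKO as well. Beside the shares below, limma called 8.78% of all genes higher and 4.94% lower in MITF/TFEB DKO, and 8.28% and 6.41% in TKO, and the median change of all genes was 0.013 and 0.014 (log2). Of 20 measured genes of collagen processing and cross-linking, 4 (20%) rose and 0 fell by limma in MITF/TFEB DKO and 5 (25%) rose and 0 fell in TKO, at a median of 0.73 and 0.52 (log2). Tgm2, a cross-linking transglutaminase, went from 5.34 CPM in the parental cells to 31.4 and 23.7 (adjusted p = 5.7e-10 and 1.1e-08), and the lysyl oxidases Loxl1 and Loxl4 rose from 0.162 and 0.0583 CPM to 1.98 and 2.75 in MITF/TFEB DKO. The lysyl hydroxylase Plod2 rose in MITF/TFEB DKO, from 57.3 to 139 CPM, and the procollagen C-proteinase Bmp1 and the prolyl hydroxylase P3h3 rose in TKO.

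Focal adhesion adaptors and kinases, which join integrins to actin, gave 6 higher (20%) and 1 lower (3.33%) of 30 in MITF/TFEB DKO and 12 higher (40%) and 1 lower in TKO, at a median of 0.65 and 0.82. Zyx, Flna and Vcl rose in both lines, to 266, 604 and 50.2 CPM in MITF/TFEB DKO from 64.6, 159 and 20.5. Lims2 showed the largest change, from 1.45 CPM to 65 and 41.3 (log2 fold change 4.76 and 4.13). Parvb, which binds the integrin-linked kinase, fell from 167 CPM to 50.6 and 41.6. Ilk, Actn4, Lims1, Lpp and Bcar1 were called higher in TKO.

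Of 25 other matrix glycoproteins and proteoglycans 7 rose (28%) and 2 fell (8%) in MITF/TFEB DKO, and 8 rose (32%) and 3 fell (12%) in TKO, at a median of 0.54 and 0.46. The matricellular Ccn1 and Ccn2 rose from 3.67 and 1.95 CPM to 46.1 and 19.9 in TKO, and the basement membrane proteoglycan Hspg2 from 16.9 to 74.4 and 85.6. Fbln1 fell in both lines, and the basement membrane linker Nid1 fell in TKO, from 11.4 to 5.05 CPM. Of 32 other proteases, inhibitors and adhesion receptors 7 rose (21.9%) and 2 fell (6.25%) in MITF/TFEB DKO and 5 rose (15.6%) and 1 fell (3.12%) in TKO, at a median of 0.30 and 0.19, so the share that fell was near or below that of all genes. The adhesion molecule Mcam went from 63.4 to 197 and 254 CPM in these lines.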
